A study of Mus musculus with 6 samples.

Results

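*Prg4*, *Creb5*, *Cilp*, *Cilp2* and *Clu* are genes of the articular surface and its matrix, and all 5, chosen by symbol, were found among the 22032 genes measured by RNA-seq in sorted mouse knee chondrocytes. The embryonic group held 3 samples of LIN-ALP-BMPR1B+ knee cells from embryos at day 16.5 of gestation, a stage that the labels write in weeks. The adult group held 3 samples of CD31-CD45-Ter119-ALP-BMPR1B+ cells from the knees of 2 month old male B6 animals. BMPR1B is a bone morphogenetic protein receptor carried by articular chondrocytes, ALP is alkaline phosphatase of bone-forming cells, and LIN and the remaining antigens mark blood and endothelial cells. The series describes the samples as biological replicates, the number of animals in each sample is not given in the sources used here, and the strain and sex of the embryos are not named there.

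Articular cartilage slides on a thin superficial layer of flattened chondrocytes that secrete lubricin, the product of *Prg4*, a long mucin-like glycoprotein that coats the joint surface and keeps friction low. CREB5, a DNA-binding protein of the ATF/CREB family that recognises the cAMP response element (CRE), is known as a factor that chondrocytes of the superficial zone need for *Prg4* induction. CILP and CILP2 are related matrix proteins of the cartilage interior, and CILP is known to bind TGF-β1 and to dampen IGF-1 signalling, while clusterin, the product of *Clu*, is a secreted chaperone that superficial chondrocytes make in quantity.

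The most unusual sequence among these genes is the tandem repeat that encodes the mucin domain of lubricin. It is shown because some reads within it cannot be placed on 1 copy. *Prg4* lies on the minus strand of chr1:150449412-150466165 (GRCm38, GENCODE M21). In its longest coding transcript, Prg4-206, the 24-base unit CCCAAGGAGCCTGAACCCACAACT stood 18 times without a mismatch within coding bases 1039 to 2328, all of them in exon 7 of 13. A stretch of 240 bases from coding base 1369 to 1608, in the sense of the gene and located in exon 7 at chr1:150455313-150455552, held 6 of these copies, which are in capitals.

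Prg4 repeat: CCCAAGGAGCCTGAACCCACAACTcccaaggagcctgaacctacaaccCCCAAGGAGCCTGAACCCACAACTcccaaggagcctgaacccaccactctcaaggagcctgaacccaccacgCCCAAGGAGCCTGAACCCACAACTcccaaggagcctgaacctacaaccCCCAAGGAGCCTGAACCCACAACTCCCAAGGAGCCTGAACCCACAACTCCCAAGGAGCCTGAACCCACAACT

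At the read length of 50 bases, 20.3% of the 3772 50-base words of this transcript occurred more than once within it, and 0.477% (18 words) also occurred in another gene, *Tpr*. None of the words of the chosen transcripts of *Creb5*, *Cilp*, *Cilp2* or *Clu* occurred in another gene. The coding sequences of *Cilp* and *Cilp2*, of 3750 and 3486 bases, were 59.2% identical over 3415 aligned bases, and their longest identical run was 14 bases, so reads of 50 bases can tell them apart.

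RefSeq promoter windows, of 250 bases before to 50 bases after a transcription start (GRCm38.p6), were at hand for 3 of the 5 genes, *Creb5*, *Cilp* and *Cilp2*. Each was searched on both strands for the CRE, TGACGTCA, for its core, TGACG, which the CRE contains on both strands, and for the AP-1 site, TGANTCA. The 2 windows of *Creb5*, at chr6:53287053-53287352 and chr6:53573124-53573423 on the plus strand, are shown because each held 1 of these motifs, given in capitals. The first held a CRE and the second an AP-1 site, and both motifs began 45 bases before their start.

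Creb5 first start: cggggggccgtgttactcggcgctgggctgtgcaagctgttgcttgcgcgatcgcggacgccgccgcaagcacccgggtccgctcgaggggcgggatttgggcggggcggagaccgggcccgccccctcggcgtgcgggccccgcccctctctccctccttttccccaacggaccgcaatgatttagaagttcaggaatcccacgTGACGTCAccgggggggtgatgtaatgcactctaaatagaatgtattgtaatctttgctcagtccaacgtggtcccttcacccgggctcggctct

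Creb5 second start: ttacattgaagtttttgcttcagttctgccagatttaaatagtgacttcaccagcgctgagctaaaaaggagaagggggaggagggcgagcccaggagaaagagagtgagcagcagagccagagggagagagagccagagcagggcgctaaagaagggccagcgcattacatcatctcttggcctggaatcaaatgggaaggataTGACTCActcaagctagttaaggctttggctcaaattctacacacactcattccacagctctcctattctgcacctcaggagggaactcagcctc

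Of 32851 RefSeq promoter windows of the same length, 1.79% held a CRE, 20.8% the core and 7.81% an AP-1 site. The windows of *Cilp* (chr9:65264930-65265229, plus strand) and *Cilp2* (chr8:69887343-69887642, minus strand) held none of the 3 motifs. These matches describe letters, and no binding was measured here.

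Values are TPM, transcript abundances that are scaled by transcript length and add up to the same total in each sample, so that genes can be set side by side, and tests used log2(TPM + 1). Of the 5 genes, 4 were higher in the adult samples and 1, *Creb5*, was lower, each with a limma adjusted p under 0.05. Over all 13125 genes tested the share past that threshold was 45.3%, made up of 23.9% higher and 21.4% lower in adults, and the median log2 difference of all genes was 0.16. All 5 genes had stages that did not overlap, as had 56.5% of all genes. With so large a share of all genes past the threshold, the sizes of the differences carry more than the count, and they follow gene by gene. Stage coincides with age and with every condition of collection that differed between embryos and adults, and these cannot be told apart. In sorted bulk cells, likewise, a changed share of expressing cells cannot be told apart from a changed amount of RNA in each of them. This holds for the 4 genes that rose as for *Creb5*, which fell.

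In embryos *Prg4* stood at 123, 194 and 162 TPM, and adult chondrocytes had 23818, 26392 and 25593 TPM. Every adult value was far above the highest embryonic value, and on the log2 scale the adult samples lay closer to one another than the embryonic ones. The mean log2(TPM + 1) rose from 7.30 ± 0.33 (SD, n = 3) to 14.62 ± 0.08 (SD, n = 3), a log2 difference of 7.32 (SE 0.171, limma adjusted p = 8.8e-08) that was the 4th largest rise of all genes tested. On the linear scale the mean TPM was 158-fold higher in adults. Lubricin transcripts held 2.38%, 2.64% and 2.56% of the adult TPM totals, against 0.0123%, 0.0194% and 0.0162% of the embryonic totals. By level, *Prg4* stood at rank 1, 2 and 1 among all genes in the adults and at rank 1644, 905 and 1176 in the embryos.

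*Cilp*, on chr9:65265180-65280605 (plus strand), had 40.01, 29.1 and 31.1 TPM before birth, whereas adult chondrocytes had 4091, 5526 and 3779 TPM. The adult samples were all far above the embryonic ones, and adult replicate 2 was the highest. The log2 values rose from 5.09 ± 0.24 to 12.11 ± 0.29 (SD, n = 3 each), a difference of 7.01 (SE 0.178, limma adjusted p = 8.8e-08) and the 7th largest rise, and the mean TPM was 134-fold higher. The gene for this matrix protein stood at rank 16, 9 and 17 in the adult samples, after ranks between 4424 and 5224 in the embryonic samples.

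*Cilp2*, on chr8:69880369-69887687 (minus strand), was the lowest of the genes in the embryos, at 6.51, 3.06 and 5.30 TPM, and was measured at 299, 536 and 378 TPM in the adults. Again the stages did not overlap and adult replicate 2 held the highest value. The log2 level rose by 6.09 (SE 0.287, limma adjusted p = 1.6e-06), from 2.53 ± 0.46 to 8.62 ± 0.42 (SD, n = 3 each), which was the 19th largest rise and an 81.6-fold higher mean TPM. The spread between embryonic samples was wider for *Cilp2* than for the other genes on the log2 scale, at a level of a few TPM.

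*Clu*, on chr14:65968483-65981547 (plus strand), was measured at 50.9, 53.6 and 52.9 TPM in the embryos and at 2927, 5656 and 3643 TPM in the adults. The embryonic samples were nearly level with one another, whereas adult replicate 2 was higher than both other adults. The log2 level of this chaperone gene rose from 5.74 ± 0.04 to 11.94 ± 0.48 (SD, n = 3 each), by 6.20 (SE 0.215, limma adjusted p = 3.5e-07), which was the 15th largest rise and a 77.7-fold higher mean TPM.

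*Creb5*, on chr6:53287270-53700376 (plus strand), went the other way. Embryonic levels were 91.1, 95.2 and 88.3 TPM, and adult levels were 65.0, 46.7 and 59.4 TPM. The lowest embryonic value was above the highest adult value, and adult replicate 2, the highest adult sample for the other 4 genes, was the lowest here. The log2 level fell by 0.69 (SE 0.165, limma adjusted p = 0.0094), from 6.53 ± 0.05 to 5.85 ± 0.24 (SD, n = 3 each), and the mean TPM was 1.60-fold higher in embryos. A larger difference in size was found for 55.0% of the genes tested. With adult replicate 2 left out, the log2 difference was -0.55 (limma adjusted p = 0.0244).

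**Figure D1:**
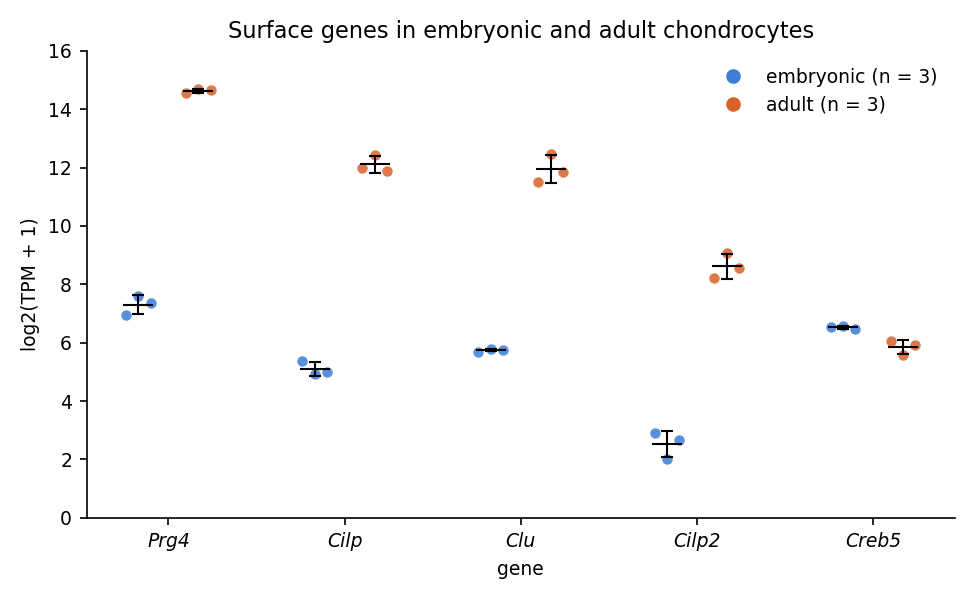
Level of the 5 genes in each sample as log2(TPM + 1), with 1 point per sample and bars for the mean and SD of 3 samples per stage. The adult points of *Prg4*, *Cilp*, *Clu* and *Cilp2* stand 6.09 to 7.32 above the embryonic ones on average, and those of *Creb5* 0.69 below.

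The order of levels differed between the stages. In embryos it was *Prg4*, *Creb5*, *Clu*, *Cilp* and *Cilp2* from high to low, and no neighbours in this order overlapped. In adults it was *Prg4*, *Cilp*, *Clu*, *Cilp2* and *Creb5*, and the sample values of *Cilp* and *Clu* overlapped while the other neighbours did not. Thus the gene for the transcription factor moved from the 2nd to the 5th place. Together the 5 genes took up 0.0311% to 0.0375% of an embryonic sample's TPM and 3.12% to 3.82% of an adult sample's, and in adults *Prg4* was the major part. Since the total is fixed, this gain lowers the share left for all other genes. Rescaling the samples without the 5 genes moved the median log2 difference of all genes from 0.16 to 0.20 and that of *Creb5* from -0.69 to -0.64.

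**Figure D2:**
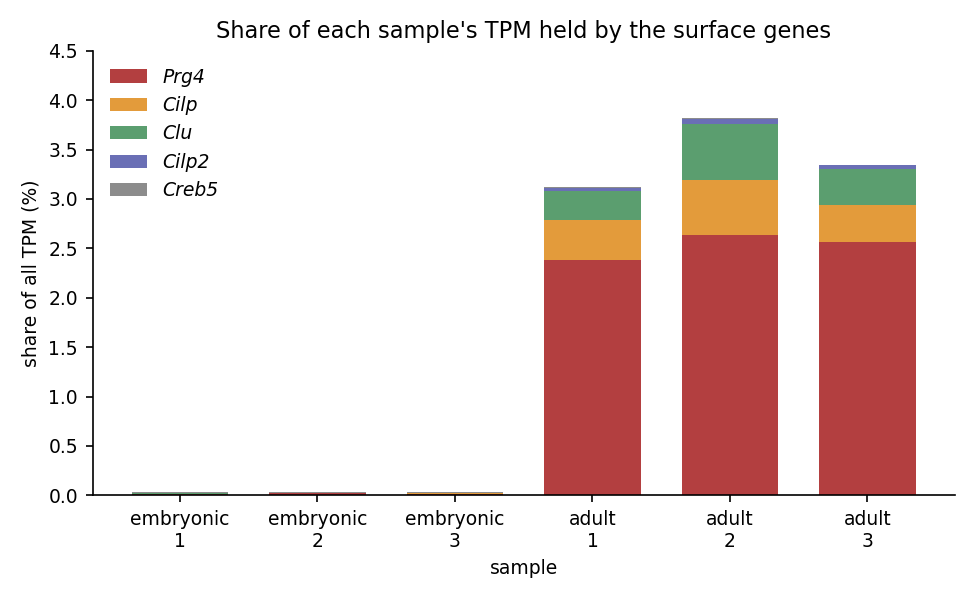
Share of all TPM held by each of the 5 genes in each sample, in percent, as stacked bars that start at 0. The adult bars reach 3.12% to 3.82% and consist mostly of *Prg4*, while the embryonic bars reach at most 0.0375% and are barely visible at this scale.

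Differences between 2 genes within a sample hardly depend on a constant factor applied to the whole sample, and 4 such pairs were compared between the stages by exact two-sided permutation of the samples, for which p = 0.1 is the smallest value that 3 against 3 allow. *Prg4* was 1.35 to 2.04 times the level of *Creb5* in embryos and 366 to 565 times in adults. The log2 difference between these genes thereby grew by 8.01, without overlap (exact p = 0.1, adjusted over the 4 pairs 0.133). *Prg4* was 2.41 to 3.62 times the level of *Clu* in embryos and 4.67 to 8.14 times in adults, a growth of 1.12 on the log2 scale (exact p = 0.1, adjusted 0.133). *Cilp* was 5.86 to 9.51 times the level of its relative *Cilp2* in embryos and 9.99 to 13.7 times in adults, a growth of 0.92 (exact p = 0.1, adjusted 0.133). These 3 pairs had separate stages, at the smallest p that the design allows, but under quantile normalization *Prg4* minus *Clu* grew by 0.83 and its stages were no longer separate (exact p = 0.3). The ratio of *Prg4* to *Cilp* was 3.07 to 6.67 in embryos and 4.78 to 6.77 in adults, so that the stages overlapped. Its log2 difference of 0.31 (exact p = 0.6, adjusted 0.6) came to -0.0035 without embryonic replicate 1, to 0.55 without embryonic replicate 2 and to 0.0009 under quantile normalization.

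Genes of the joint surface and of the embryonic interzone, the layer from which the joint forms, were set beside these 5 genes. Of 11 such genes tested, 3 were higher and 7 lower in adults, with a median log2 difference of -1.85 against 0.16 for all genes. *Vit*, which encodes the matrix protein vitrin, rose by 4.14 (SE 0.461, limma adjusted p = 1.8e-04), from 4.08, 1.18 and 6.76 TPM to 86.6, 96.0 and 53.9 TPM. *Abi3bp*, which encodes a matrix glycoprotein, was measured at 77.4, 64.5 and 70.8 TPM in embryos and at 137, 202 and 166 TPM in adults, a rise of 1.22 (SE 0.17, limma adjusted p = 5.7e-04). The third gene that rose, *Thbs4*, had stages that overlapped, and its call was lost under 9 of 17 alternatives.

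Among the genes that fell were regulators of joint formation. *Gdf5*, a growth factor of the interzone, was measured at 26.9, 26.0 and 25.2 TPM in embryos and 1.39, 5.11 and 4.20 TPM in adults, a log2 difference of -2.68 (SE 0.403, limma adjusted p = 9.0e-04). *Erg*, a transcription factor gene of articular chondrocytes, stood at 71.3, 75.5 and 58.9 TPM and then at 21.3, 23.8 and 22.9 TPM, a log2 difference of -1.55 (SE 0.180, limma adjusted p = 2.3e-04). Neither gene had stages that overlapped, and in *Gdf5* the adult samples differed more from each other than the embryonic ones. *Tnc*, for the matrix protein tenascin-C, fell by 4.38 (SE 0.572, limma adjusted p = 4.1e-04), from between 522 and 596 TPM to between 7.66 and 50.7 TPM. *Tppp3*, a gene known from tendon sheath cells, fell by 3.80 (SE 0.451, limma adjusted p = 2.5e-04), from between 138 and 206 TPM to between 5.03 and 24.8 TPM. The list thus held genes that moved with *Prg4* as well as genes that moved against it, and each fall named here was larger than the 0.69 of *Creb5*.

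Of the other ATF/CREB family genes, which share the DNA-binding leucine zipper with CREB5, 14 of 15 passed the filter on low levels. Of these, 4 were higher in adults, 3 were lower and 7 did not pass the threshold, and the median log2 difference was 0.04. The nearest relatives of *Creb5* are *Atf2* and *Atf7*. *Atf7* rose from 55.7, 43.2 and 48.5 TPM to 99.9, 108 and 91.8 TPM, by 1.01 on the log2 scale (SE 0.159, limma adjusted p = 0.00111). *Atf2* was measured at 64.1, 60.2 and 73.6 TPM in embryos and at 73.1, 74.9 and 88.7 TPM in adults, with a difference of 0.25 that did not pass (SE 0.157, limma adjusted p = 0.215). The stages overlapped for *Atf2* and were separate for *Atf7*, which was measured above *Creb5* in every adult sample and below it in every embryonic sample.

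The widest changes of the family were in stress-responsive members. *Atf5* rose from 46.8, 61.8 and 62.4 TPM to 281, 403 and 342 TPM, by 2.56 (SE 0.178, limma adjusted p = 1.4e-05). *Atf3*, an immediate early gene, fell from 627, 645 and 685 TPM to 80.5, 120 and 138 TPM, by 2.56 (SE 0.190, limma adjusted p = 2.0e-05). *Creb3l1*, whose membrane-bound product serves the secretory pathway, fell by 1.25 (SE 0.201, limma adjusted p = 0.00126), from between 129 and 151 TPM to between 43.5 and 69.7 TPM.

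**Figure D3:**
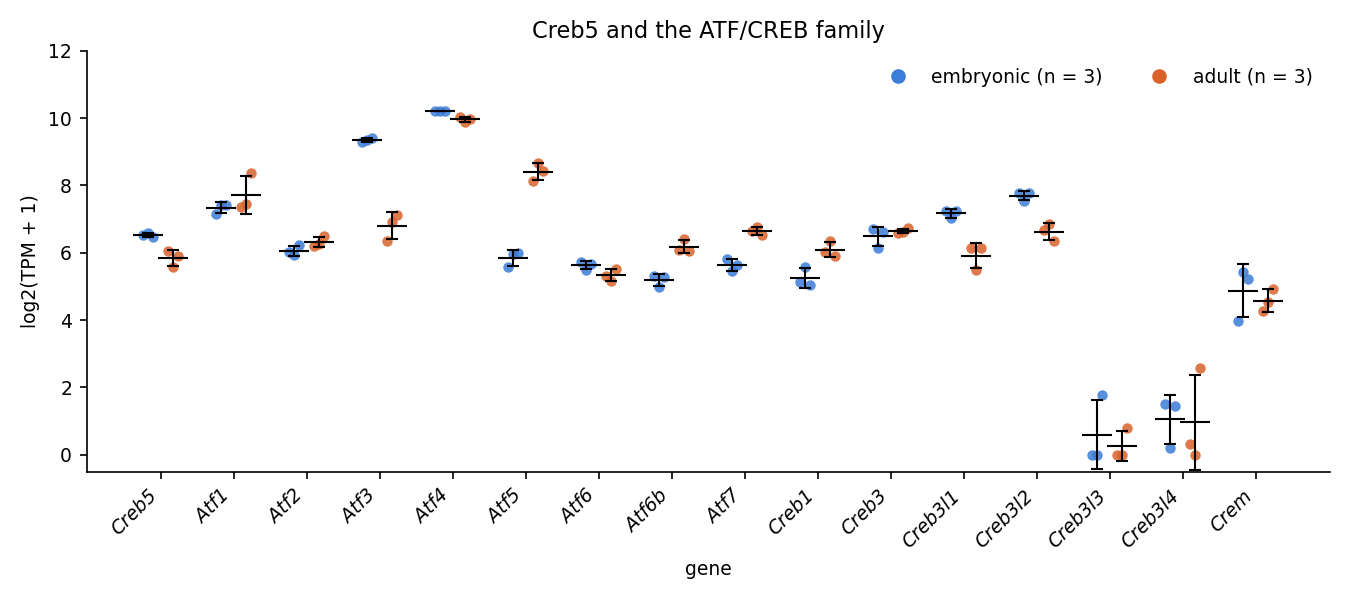
Level of *Creb5* and the 15 other ATF/CREB family genes in each sample as log2(TPM + 1), with 1 point per sample and bars for the mean and SD of 3 samples per stage. *Atf5* and *Atf7* are higher and *Atf3*, *Creb3l1* and *Creb5* lower in the adult samples, while *Atf2* overlaps between the stages.

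The kinases and coactivators that carry the cAMP signal to CREB proteins were compared next. Of 11 genes tested, 3 were lower in adults and 8 did not pass, with a median log2 difference of -0.05. *Prkaca*, for a catalytic subunit of protein kinase A, had a log2 difference of -0.60 (SE 0.192, limma adjusted p = 0.0319). The regulatory subunit gene *Prkar2a* had one of -0.55 (SE 0.148, limma adjusted p = 0.0152), and the 3rd gene was the coactivator gene *Crebbp*. These calls were not firm, since limma called 0 of the 11 genes without embryonic replicate 1 (1 at an unadjusted p under 0.05) and 0 without embryonic replicate 3 (2 unadjusted), and 1 without adult replicate 3.

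Signals known to regulate *Prg4* in chondrocytes include TGF-β, EGF receptor ligands, PTHrP, and the FOXO, NFAT and YAP/TAZ factors. Of 23 genes of these pathways tested, 4 were higher in adults, 13 lower and 6 did not pass, with a median log2 difference of -0.50. The 4 that were higher were *Tgfbr3*, *Ereg*, *Foxo1* and *Tgfb1*. *Tgfbr3*, for the co-receptor betaglycan, was measured at 84.4, 59.4 and 74.7 TPM in embryos and at 269, 393 and 234 TPM in adults, a rise of 2.00 (SE 0.213, limma adjusted p = 1.4e-04). *Tgfb1*, for the ligand, rose from 61.8, 56.4 and 51.6 TPM to 141, 131 and 152 TPM, by 1.31 (SE 0.142, limma adjusted p = 1.6e-04). *Foxo1* rose from 17.8, 15.9 and 20.2 TPM to 47.8, 52.3 and 49.9 TPM, by 1.43 (SE 0.194, limma adjusted p = 4.9e-04). In each of these genes the lowest adult sample was above the highest embryonic sample. *Ereg*, for the EGF receptor ligand epiregulin, was low at 0.417 to 3.98 TPM in embryos and 5.65 to 8.47 TPM in adults, and its log2 difference of 1.47 (SE 0.531, limma adjusted p = 0.0489) was no longer past the threshold under 11 of 16 alternatives.

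Other members of the same pathways were lower. *Tgfb3*, a second TGF-β ligand, fell from 86.6, 87.6 and 70.2 TPM to 14.6, 17.1 and 13.0 TPM, by 2.37 (SE 0.197, limma adjusted p = 3.7e-05). *Nfatc2*, for a calcineurin-dependent transcription factor, fell from 152, 134 and 151 TPM to 10.2, 6.81 and 4.36 TPM, by 4.23 (SE 0.274, limma adjusted p = 9.8e-06). *Egfr*, for the EGF receptor, stood at 79.8 to 88.7 TPM in embryos and 57.3 to 61.4 TPM in adults, a log2 difference of -0.50 (SE 0.139, limma adjusted p = 0.0176) that was no longer past the threshold under 4 of 17 alternatives, among them without embryonic replicate 1 (adjusted p = 0.0661), without embryonic replicate 2 (adjusted p = 0.0523) and with the replicate block (adjusted p = 0.0504). Thus the ligand genes *Tgfb1* and *Tgfb3* moved in opposite directions between the same samples. *Tgfb2*, the remaining TGF-β ligand gene of the list, was lower in adults, with a log2 difference of -2.12 (SE 0.319, limma adjusted p = 9.0e-04). Among the EGF receptor ligand genes, *Hbegf* was lower, at a mean of 365 TPM in embryos and 95.3 TPM in adults. Its log2 difference was -1.935 (SE 0.141, limma adjusted p = 1.8e-05), while *Tgfa* and *Areg* did not pass.

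Molecules that bind these proteins or are bound by them were measured too. Lubricin is known to bind CD44, TLR2 and TLR4, fibronectin and COMP, while CILP binds TGF-β1 and acts on IGF-1. Of 8 such genes, 5 were higher in adults, 2 lower and 1 did not pass, with a median log2 difference of 1.60. *Tlr4* rose from 9.87, 8.30 and 12.7 TPM to 59.8, 82.0 and 106 TPM, by 2.87 (SE 0.266, limma adjusted p = 6.6e-05). *Tlr2* rose from 35.2, 39.8 and 35.1 TPM to 177, 233 and 244 TPM, by 2.53 (SE 0.165, limma adjusted p = 1.0e-05). Both Toll-like receptor genes were higher in every adult sample. *Igf1*, for the growth factor, fell by 6.24 (SE 0.283, limma adjusted p = 1.3e-06), from 357, 293 and 362 TPM to 4.53, 1.84 and 4.62 TPM. *Cd44*, for the hyaluronan receptor, fell by 1.51 (SE 0.126, limma adjusted p = 3.8e-05), from 773, 859 and 844 TPM to 317, 253 and 304 TPM. *Igf1* was therefore the deepest fall of this list while *Cilp* had one of the largest rises of all genes.

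The list of receptors that take up clusterin and chaperones of like function, which also held other genes such as *Cd59a*, was less uniform. Of 8 genes 6 passed the filter, and 2 were higher, 1 lower and 3 not past the threshold, with a median log2 difference of 0.35. *Vldlr*, a receptor gene, rose from 116, 85.6 and 120 TPM to 233, 208 and 233 TPM, by 1.07 (SE 0.158, limma adjusted p = 8.1e-04). In this gene the stages did not overlap, and its rise was smaller than the 6.20 of *Clu* itself. The other higher gene was *Cd59a*, which is neither such a receptor nor a chaperone. Its mean was 1.85 TPM in embryos and 11.1 TPM in adults, and its stages overlapped (limma adjusted p = 0.0361).

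Genes of deeper cartilage and of the growth plate did not move as one. Of 10 tested, 4 were higher, 4 lower and 2 not past the threshold, with a median log2 difference of -0.35. *Chad*, for the matrix protein chondroadherin, rose from 139, 115 and 118 TPM to 4667, 6557 and 4803 TPM, by 5.40 (SE 0.158, limma adjusted p = 1.3e-07). *Col10a1*, for the collagen of hypertrophic chondrocytes, rose from 14.5, 72.4 and 11.4 TPM to 814, 949 and 1096 TPM, by 5.29 (SE 0.563, limma adjusted p = 1.4e-04). These 2 rises were somewhat smaller than those of *Prg4*, *Cilp*, *Clu* and *Cilp2*, which lay between 6.09 and 7.32. Whether the sizes differ was not tested. *Matn1*, for a matrilin of embryonic cartilage, stood at 752, 891 and 814 TPM in embryos and is listed at 0 in all 3 adult samples. *Epyc*, for the proteoglycan epiphycan, fell by 6.25 (SE 0.558, limma adjusted p = 5.4e-05), from between 201 and 221 TPM to at most 5.04 TPM.

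**Figure D4:**
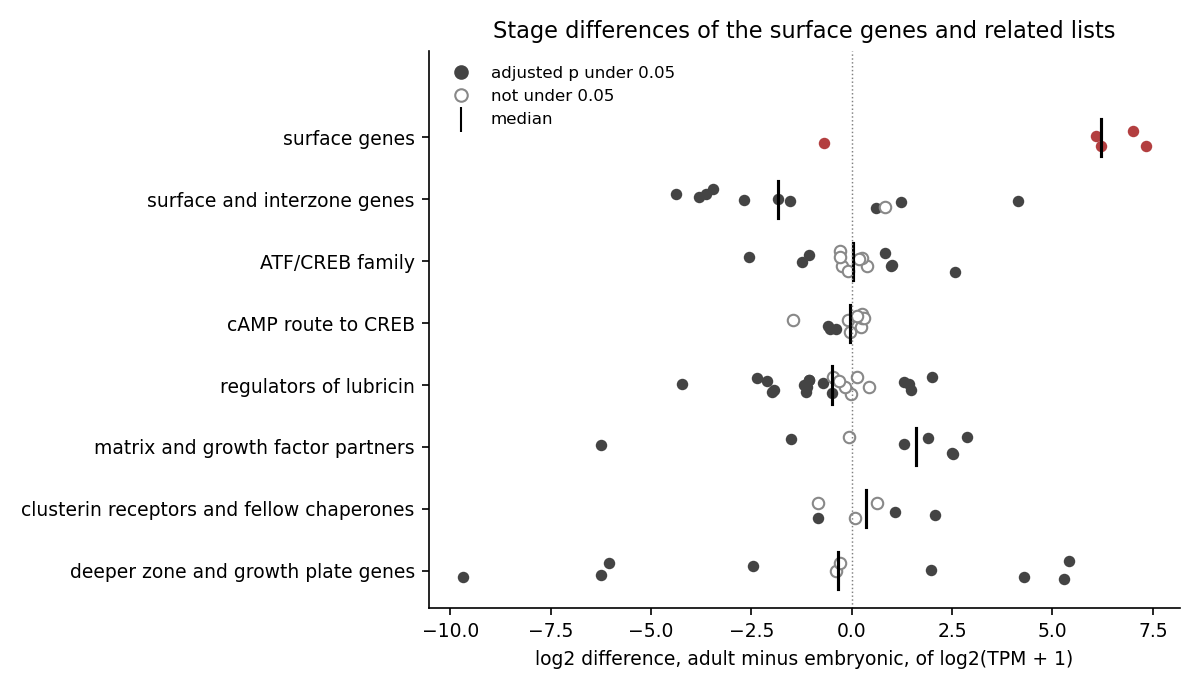
Log2 difference, adult minus embryonic, of log2(TPM + 1) for *Prg4*, *Creb5*, *Cilp*, *Cilp2* and *Clu*, labelled surface genes, and for every tested gene of the 7 related lists. Filled points mark an adjusted p under 0.05, open points the rest, and a vertical bar each list's median. The surface genes have a median of 6.20 and 1 fall, and the surface and interzone genes a median of -1.85. The ATF/CREB family, from -2.56 to 2.56, and the cAMP route, from -1.48 to 0.315, have medians of 0.04 and -0.05.

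The genes whose profiles over the 6 samples lay nearest to those of the 5 genes were found by the Euclidean distance between mean-centred log2(TPM + 1) values, a measure that with 2 stages mostly reflects the size of the stage difference. For *Prg4* these were *Nos2* (distance 0.79), *Sod3* (0.88) and *Cilp* (0.95). *Nos2*, for the inducible nitric oxide synthase, was listed at 0, 0 and 0.392 TPM in embryos and stood at 124, 147 and 123 TPM in adults. *Sod3*, for the extracellular superoxide dismutase, stood at 7.39, 17.4 and 15.4 TPM and then at 1391, 1875 and 1267 TPM. Both had their highest adult value in adult replicate 2, as had *Prg4*, a likeness that their choice by these same values favours.

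*Cilp* lay nearest to *Galnt15* (distance 0.60), a transferase gene of mucin-type glycosylation, followed by *Nos2* (0.65) and *Hhipl2* (0.81). *Galnt15* was measured at 1.34, 0.525 and 0.356 TPM in embryos and at 136, 217 and 171 TPM in adults, while *Hhipl2* was listed at 0 in all embryos and stood at 93.6, 97.7 and 71.0 TPM in adults. *Cilp2* lay nearest to *Dio2* (0.63), for a thyroid hormone deiodinase, to *Eps8l2* (0.71) and to *Clu* (0.71). *Clu* in turn lay nearest to *Cilp2* (0.71), *Hhipl2* (0.74) and *2210408F21Rik* (0.75), the last of which was listed at 0 in all embryos. So *Prg4* had *Cilp*, and *Cilp2* and *Clu* had each other, among their 3 nearest. Under this measure that mostly restates that their rises were of like size. *Creb5* lay among genes with a small fall. Its nearest were *Rpl18* (0.14), a ribosomal protein gene, *Ppp1r2* (0.16), for a phosphatase inhibitor, and *Eci2* (0.16), for an enzyme of fatty acid oxidation. Like *Creb5* they had their lowest value in adult replicate 2, at 551, 68.1 and 23.7 TPM, a likeness that their choice by these same values favours.

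Chondrocyte markers were present in both stages, and all 12 listed were at a mean of at least 1 TPM in each. Their summed level was 27951 to 29786 TPM in embryos and 10371 to 13547 TPM in adults, with 3 markers higher, 8 lower and 1 not past the threshold. *Col2a1*, for the main cartilage collagen, was measured at 14663, 14154 and 15251 TPM in embryos and 7084, 3166 and 3869 TPM in adults. *Sox9*, for the master transcription factor of chondrocytes, stood at 452, 392 and 465 TPM and then at 589, 901 and 656 TPM. The marker sum was therefore lower in adults, as was *Creb5*, while *Prg4*, *Cilp*, *Cilp2* and *Clu* were higher.

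Lubricin is also made by lining fibroblasts of the synovium, the membrane around the joint, so their markers were set beside it. Of 5 lining markers 2 were higher in adults, 2 lower and 1 not past the threshold, and their summed level was 445 to 477 TPM in embryos and 1179 to 2000 TPM in adults. The adult sum was carried by 1 gene, the protease gene *Htra4*, singled out after its values were seen, and without it the other 4 markers summed to 429 to 455 TPM in embryos and 134 to 152 TPM in adults. *Htra4* rose from 15.6, 21.5 and 18.2 TPM to 1849, 1045 and 1443 TPM, by 6.19 (SE 0.214, limma adjusted p = 3.5e-07). Its highest adult sample was adult replicate 1 and its lowest adult replicate 2, the reverse of *Prg4*, *Clu* and *Cilp2*. *Cd55* was lower in adults, at 29.1, 23.7 and 30.6 TPM against 58.5, 49.4 and 70.3 TPM, and so was *Hbegf*. The other higher marker, *Clic5*, overlapped between stages and its call was lost under 10 of 17 alternatives. Of 7 markers of sublining fibroblasts 5 were lower in adults and 2 did not pass, and their sum was 978 to 1044 TPM in embryos and 354 to 492 TPM in adults.

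**Figure D5:**
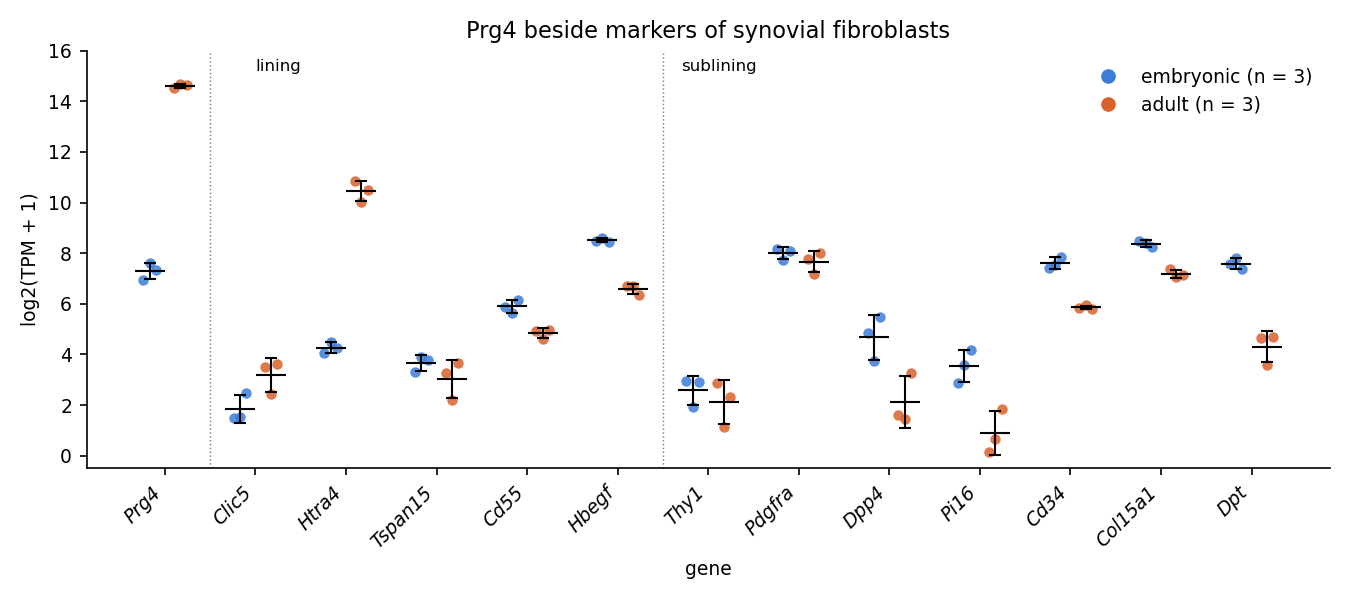
Level of *Prg4* beside 5 markers of synovial lining and 7 markers of sublining fibroblasts in each sample as log2(TPM + 1), with 1 point per sample and bars for the mean and SD of 3 samples per stage. *Htra4* is higher in the adult samples together with *Prg4*, whereas *Cd55*, *Hbegf* and 5 of 7 sublining markers are lower.

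Markers of the other cell types moved as follows. Of 8 macrophage and leukocyte markers 4 passed the filter, with 2 higher in adults and 2 not past the threshold, and *C1qa* was listed at 0 in all samples. Their sum of 7.20 to 19.8 TPM in embryos and 401 to 477 TPM in adults came in adults mostly from *Cd14*, at 357, 458 and 364 TPM. Without it the other 7 markers summed to 6.02 to 13.7 TPM in embryos and 19.0 to 72.3 TPM in adults. *Cd68* was the other marker that was higher in adults, and *Ptprc*, which encodes CD45, stood at no more than 2.29 TPM. Of 6 osteoblast markers 3 were higher and 2 lower, with a sum of 4922 to 6007 TPM in embryos and 553 to 1069 TPM in adults. The collagen gene *Col1a1* set that direction, since the other 5 summed to 26.9 to 60.8 TPM in embryos and 284 to 432 TPM in adults. Among these *Bglap* was listed at 0 in all embryos and reached 15.8 to 83.9 TPM in adults. *Ibsp* and *Alpl* were also higher, at means of 287 and 35.8 TPM in adults against 11.6 and 15.9 TPM in embryos. *Dmp1* was lower, at a mean of 1.21 TPM in adults against 12.3 TPM in embryos, and *Sp7* did not pass. Of 5 tendon and ligament markers 3 were lower and 2 did not pass, at sums of 1085 to 1302 TPM in embryos and 1118 to 1911 TPM in adults. Most of both sums was *Fmod*, and the other 4 summed to 198 to 347 TPM in embryos and 15.5 to 52.0 TPM in adults. Of 5 endothelial markers 3 passed the filter, with 1 lower and 2 not past the threshold. Limma called 0 of 3 erythroid, 0 of 2 muscle and 0 of 1 adipocyte markers tested (0 also at an unadjusted p under 0.05). Their sums were at most 33.3 TPM for endothelial, 133 TPM for erythroid, 25.4 TPM for skeletal muscle and 47.8 TPM for adipocyte markers in any sample, with *Myh4* and *Adipoq* listed at 0 in all. The part of these cell types in the levels of the 5 genes was not tested.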

How the data were processed

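RNA was extracted from sorted mouse knee chondrocytes, 3 embryonic and 3 adult samples. The methods name a Nugen Ovation V2 kit for cDNA and the labels a Kapa mRNA-Seq kit, and single-end reads of 50 bases were mapped to GRCm38. Levels were estimated with RSEM (version not given in the sources used here), and the authors deposited log2(TPM + 1) per Ensembl gene. Those log2 values, taken back to TPM, add up to 1000000 in each sample, so depth is not carried by them and the precision of a value rests on 3 samples per stage. Symbols and positions came from GENCODE M21, and 21902 of 22032 identifiers had a symbol.

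Stages were compared with limma 3.58.1 in R 4.3.3 (lmFit, eBayes with trend, stage as the only term) on log2(TPM + 1) for the 13125 genes whose mean level reached 1 TPM, with Benjamini-Hochberg adjustment over all of them and a threshold of 0.05. On this scale the fold changes of low genes come out too small. EBSeq, which the methods name, needs counts and was not used here. The procedure was tested on simulated data in which 200 of 13125 genes were changed, far fewer than passed in the real data. It recovered 23.9% of changes of 1 on the log2 scale, 61.2% of changes of 2 and 89.4% of changes of 4, and called 4 unchanged genes. A gene that did not pass can therefore still differ between the stages. Within-sample differences were compared by exact permutation with scipy 1.17.1. Promoters came from RefSeq and transcripts from GENCODE, and coding sequences were aligned with Biopython 1.88. No 2 samples were identical, and all 6 columns were used.

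The 5 genes, the lists and the tests were chosen with earlier results of these data known. Named are the 5 genes, up to 2 genes per list with the largest rise and 2 with the largest fall among those past the threshold without overlap, *Atf2*, *Atf7*, *Erg*, *Gdf5*, *Foxo1*, *Tgfb1*, *Igf1*, *Cd44* and *Egfr*, and the 3 nearest profiles of each gene. Of the genes that this rule or the marker lists name, 2 are not reported here. *Thbs4*, *Crebbp*, *Tgfb2*, *Tgfa*, *Areg*, *Cd59a* and the marker genes given by name were picked once their values were known. The alternatives changed the pseudocount (0.1), the filter (none, or 5 TPM), the scaling (4 kinds), the variance model (no trend, or robust), the threshold (0.01), the design (a block for the replicate number) and the samples (leaving each one out).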

Additional observations from a re-analysis of the deposited data

How the results depend on the processing

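All 5 genes kept their direction and stayed past the threshold under each of the 17 alternatives. The log2 difference lay between 6.92 and 7.47 for *Prg4*, between 6.85 and 7.15 for *Cilp*, between 5.84 and 6.34 for *Cilp2*, between 5.93 and 6.41 for *Clu* and between -0.83 and -0.55 for *Creb5*, whose adjusted p in limma lay between 0.00408 and 0.0377. Median-of-ratios scaling moved the median of all genes by -0.128, from 0.16 to 0.03, and gave the -0.83 of *Creb5*. The number of genes past the threshold for the cAMP route to CREB was 1 when rescaled without the 20 highest genes, 1 with eBayes without trend and 0 at an adjusted p under 0.01, against 3, and it ranged from 0 to 3 with each sample left out in turn. For the list with the clusterin receptors and chaperones it was 1 at an adjusted p under 0.01, against 3. The growth of *Prg4* minus *Cilp* turned to -0.0035 without embryonic replicate 1 and ranged up to 0.55 with other samples left out. The cause was not tested, apart from the fewer samples or the stricter threshold by construction.

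With the replicate number as a block, 5430 genes passed in place of 5949, the 5 genes were among them, and *Creb5* had an adjusted p of 0.022. Deviations from the stage means of samples with the same number correlated at -0.009, -0.017 and -0.022 across genes, and those of other pairs at -0.002 to 0.016, so the numbers did not pair the samples. TPM carry no depth, so no limit from counting can be given for the low values, such as those of *Cilp2* and *Ereg* in embryos, and a value listed at 0 need not mean an absent transcript.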
